A study of Bos taurus with 48 samples.

Results

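The response of the bovine uterus to a conceptus was compared between the 2 tissues of its lining within each cow. Caruncular and intercaruncular endometrium had been taken from the same uterus, so for every cow the caruncular minus the intercaruncular log2 ratio was formed, and these differences were set against each other between 12 pregnant and 10 cyclic cows, the 22 animals of the series. Of 21475 probes on the array, 14661 were tested, and all of them enter the results. A value above 0 for a probe, called the response difference here, means that pregnancy moved the caruncular tissue upwards relative to the intercaruncular tissue of the same animal.

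The animals were lactating Holstein-Friesian dairy cows whose oestrous cycles had been synchronised, and all were slaughtered on day 17. Those in the pregnant group had received a grade 1 blastocyst by embryo transfer on day 7, and their conceptuses had been classed as large in 7 cows and small in 5. The titles labelled 6 of the pregnant cows Fertile and 6 Sub-fertile, and gave the cyclic cows no such label. Each of the 44 tissue samples, in Cy5, was set on a bovine 2-colour Agilent array against a Cy3 pool of all samples, so every log2 ratio is relative to that pool. There were 48 arrays because 4 caruncular samples were hybridised a second time, and no dye swap was made.

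The endometrium of ruminants carries raised, gland-free caruncles, at which the placenta later attaches, and between them the intercaruncular tissue that holds the uterine glands. Before attachment the elongating conceptus secretes interferon tau, which binds the type I interferon receptor of the endometrium, acts through JAK-STAT signalling and induces a large set of interferon-stimulated genes. In whole tissue, fewer cells of a type and less RNA per cell cannot be told apart, and this holds for every value below.

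Arrays lay 4 to a slide, and for 20 of the 22 cows the caruncular and the intercaruncular sample were on different slides of a pair. Of the 5 slide pairs, 2 held pregnant cows alone, 2 held cyclic cows alone and 1 held 3 pregnant cows and 1 cyclic cow. Only cows Pregnant_9790 and Non-Pregnant_9786, written with the state and number of the sample titles, had both tissues on 1 slide, each on a slide scanned later. For the other cows the slide and the tissue cannot be told apart, and for most of them the slide pair and pregnancy state cannot either. Median signal over background was 15.8 to 29.7 on caruncular arrays and 8.08 to 29.2 on intercaruncular arrays. Within a cow, caruncular signal over background was higher than intercaruncular by a median factor of 1.34 (pregnant) or 1.78 (cyclic).

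Pregnancy effects differed between the tissues for 149 probes, 1.02% of those tested (limma, Benjamini-Hochberg adjusted p under 0.05). The response difference was above 0 for 95 of them, 0.648% of those tested, and below 0 for 54, 0.368%. They comprised 128 genes with a symbol and 19 probes without one. Sizes ran from 0.24 to 1.99 on the log2 scale with a median of 0.66, against a median size of 0.12 over all probes tested. Without adjustment, 2526 probes had a p under 0.05, of which 1083 were above 0. The number called moved with the animals included, from 45 without cow Non-Pregnant_1950 to 567 without cow Non-Pregnant_9786, and it was 0 when the slide pair entered the model as a fixed term, which leaves the comparison to the 1 pair that held both states.

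Among the 149 probes, 93 responded in the same direction in both tissues and more strongly in the caruncles. Pregnancy raised 67 of these and lowered 26. Another 52 had fitted responses of opposite sign, and 4 responded in the same direction but less strongly in the caruncles. Over all 14661 probes the corresponding shares were 45.1% stronger, 20.1% opposite and 34.9% weaker. The classes rest on the signs and sizes of both estimates, and most opposite responses were small: in 38 of the 52 neither tissue on its own reached an adjusted p under 0.05 with a 1.5-fold change.

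**Figure D1:**
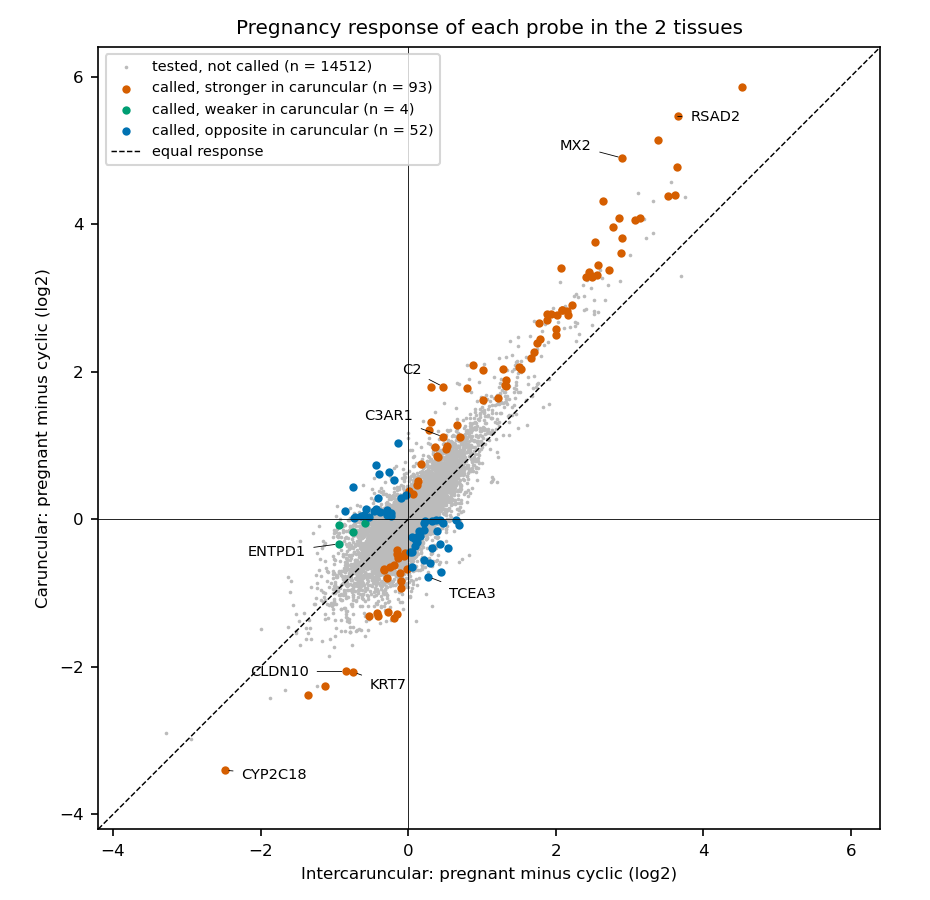
Pregnancy effect in caruncular tissue against that in intercaruncular tissue (log2, pregnant minus cyclic) for all probes tested, with the 149 called probes coloured by class. Called probes that rose strongly in both tissues lie on the caruncular side of the line of equal response.

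By the same criteria, 1466 probes (10%) changed with pregnancy in caruncular and 1054 (7.19%) in intercaruncular endometrium. All 752 probes that met both criteria, adjusted p and 1.5-fold, in both tissues changed in the same direction. A further 714 passed the threshold in caruncular tissue alone, and the response difference was called for 34 of them (4.76%). Of 302 that passed in intercaruncular tissue alone, 9 (2.98%) had a called response difference. Among the 752 that passed in both it was called for 57 (7.58%), and over all probes tested for 1.02%. Passing in 1 tissue and missing in the other was therefore mostly not accompanied by a difference between the tissues that passed its own test.

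Probes were also grouped by the mean response of both tissues, which favours neither. Of 732 probes that rose on the mean, 627 (85.7%) had the larger response in the caruncles, and 62 were called above 0 and 0 below. Of 463 that fell on the mean, 296 (63.9%) had the larger response in the caruncles, with 11 called below 0 and 1 above. Over all probes tested the caruncular response was the larger for 55.4%. The response difference was above 0 in 78.4% of the 486 probes with a mean rise of 1.5- to 2-fold, in 92.6% of the 216 with a rise of 2- to 4-fold and in all 59 with a rise of 4- to 8-fold. Above 8-fold it was above 0 in 26 of 27 probes (96.3%), with a median response of 4.08 in caruncular and 3.14 in intercaruncular tissue.

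Interferon-stimulated antiviral genes made up much of the upper end. Of 29 antiviral effectors tested, 14 were called above 0, where 0.648% of all probes were, and 0 below. Their median response difference was 0.75 against -0.02 over all probes. All 29 passed the threshold upwards in each tissue, and the list's median response was 3.13 in the caruncles and 2.50 between them. MX2, a dynamin-like antiviral GTPase, had the largest response difference. Its caruncular minus intercaruncular difference was -0.26 to 0.17 with a median of -0.08 in cyclic cows and -0.18 to 2.95 with a median of 2.04 in pregnant cows. In 11 of 12 pregnant cows it lay above every cyclic cow, and the exception was cow Pregnant_9790. The response was 29.8-fold in caruncular and 7.47-fold in intercaruncular tissue, a response difference of 1.99 ± 0.24 (SE, limma adjusted p = 0.000353).

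RSAD2, which encodes the antiviral enzyme viperin, had differences of -0.60 to 0.46 (median 0.23) in cyclic and -0.50 to 3.64 (median 2.00) in pregnant cows. Again 11 of 12 pregnant cows lay beyond all cyclic cows. Its response difference was 1.81 ± 0.30 (SE, limma adjusted p = 0.00512), from a 44.0-fold response in caruncular and a 12.6-fold response in intercaruncular tissue. The probe A_73_112930, without a symbol and named RSAD2 by the study's annotation, gave a smaller 1.33 ± 0.28 (SE, limma adjusted p = 0.0256). Its log2 responses were 5.85 in caruncular and 4.53 in intercaruncular tissue. ZBP1, a sensor of Z-form nucleic acid, had differences of -0.72 to 0.11 (median -0.53) in cyclic and -0.14 to 1.95 (median 0.81) in pregnant cows, with a response difference of 1.23 ± 0.18 (SE, limma adjusted p = 0.00179). Without a conceptus ZBP1 was thus lower in the caruncles of most cyclic cows, whereas MX2 lay near 0.

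OAS2, an oligoadenylate synthetase that activates RNA degradation, had differences of -0.64 to 0.05 (median -0.44) in cyclic and -0.06 to 1.51 (median 0.44) in pregnant cows. The response difference was 0.92 ± 0.14 (SE, limma adjusted p = 0.00345). MX1, the relative of MX2, gave 0.78 ± 0.14 (SE, limma adjusted p = 0.0076), with 8 of 12 pregnant cows above every cyclic cow. The mono-ADP-ribosyltransferase PARP12 gave 0.67 ± 0.11 (SE, limma adjusted p = 0.00505), with 11 of 12 above. The other called members were IFIT2, SAMD9, IFI44, GBP4, IFI44L, DTX3L, IFI16 and PARP14, with response differences of 0.74 to 1.68. ISG15, the ubiquitin-like modifier, had a response difference of 0.65 that did not pass, and PARP9 and TRIM25 were the only members at or below 0, at -0.01 and -0.02.

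**Figure D2:**
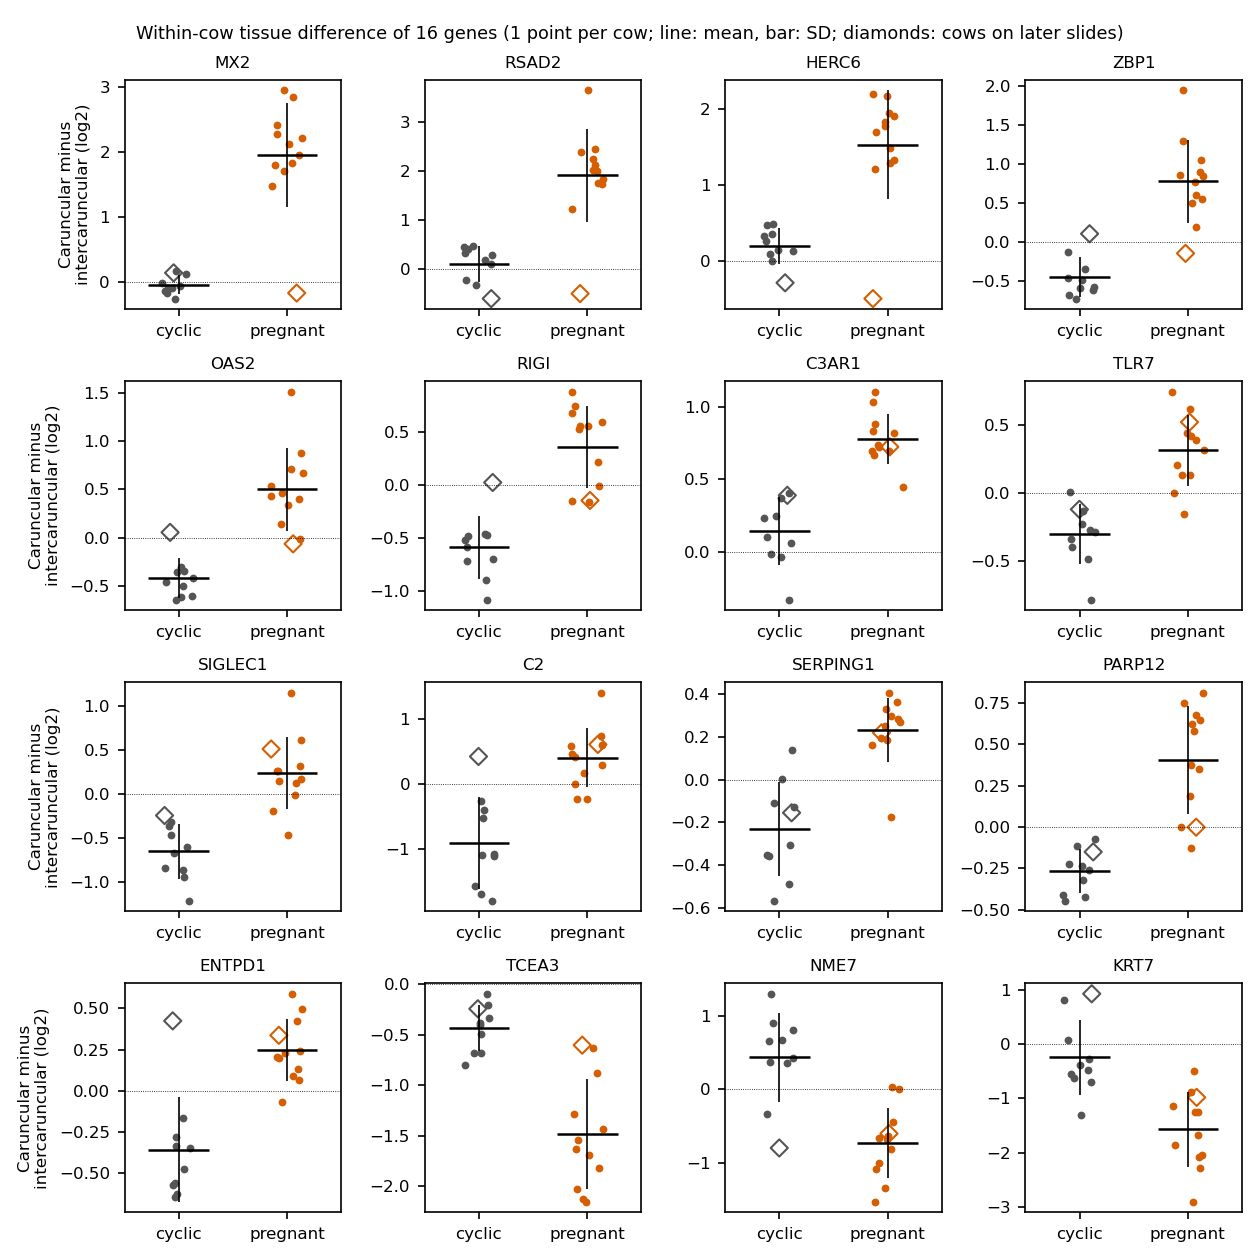
Caruncular minus intercaruncular log2 ratio of each cow for called genes, 1 point per cow, with a line at the mean, a bar of 1 SD and diamonds for the cows on later slides. For MX2 the pregnant cows reach 2.95 and the cyclic cows 0.17, and 1 pregnant cow, Pregnant_9790, lies among the cyclic ones.

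Cow Pregnant_9790 stood apart for several of these genes. Its MX2 difference was -0.18, against 1.48 to 2.95 in the other 11 pregnant cows, and its HERC6 difference was -0.49 against 1.21 to 2.20. The caruncular ratio of MX2 in this cow, 1.56, lay within the range of the other pregnant cows, whereas its intercaruncular ratio of 1.73 lay above their range of -1.79 to 0.29. For C3AR1 its difference of 0.72 lay within the 0.45 to 1.10 of the others. Over the 95 probes called above 0 its median difference was 0.00, and cow Pregnant_3807, whose tissues were on a slide pair, was also at -0.00, against 0.19 to 1.10 in the other 10 pregnant cows and -0.37 to -0.01 in cyclic cows. Both cows were labelled Sub-fertile. By this label the median difference was -0.00 to 0.43 in the 6 Sub-fertile and 0.42 to 1.10 in the 6 Fertile cows, and over the 54 probes called below 0 it was -0.73 to -0.09 and -0.73 to -0.44. The 4 lowest pregnant cows over the 95 probes were all Sub-fertile, and the ranges overlapped in the others. The 95 and 54 probes had been called on these same cows, and the label was not separated from the slide. The part of fertility in the response differences was not tested. Cow Pregnant_9790 was the pregnant cow with both tissues on 1 later slide. Without it 303 probes were called, and the response difference was 2.19 for MX2, 2.03 for RSAD2 and 1.51 for HERC6.

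Between the cows on the later slides, Pregnant_9790 and Non-Pregnant_9786, the difference had the called sign for 53 of the 95 probes (median 0.05). Within the slide pair that held both states it did so for 87 of the 95 (median 0.42, 3 pregnant cows and 1 cyclic cow). For the 54 probes called below 0 the counts were 40 and 40. All these cows were among those on which the probes had been called, so agreement in sign was partly built in. The counts are therefore no independent check. The 4 caruncular samples that were hybridised again on later slides differed from their first arrays by medians of -0.12 to 0.05 over the named called probes, and 0 intercaruncular samples were repeated. Single probes differed by -0.65 to 0.46, and in cow Non-Pregnant_9960 the repeat array was lower by 0.65 for MX1, by 0.65 for OAS2 and by 0.47 for RIGI. OAS2 was lower on the repeat in all 3 repeated cyclic cows, by 0.29 to 0.65. The part of slide or scan in the response differences was not tested.

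Sensors of viral nucleic acid and the genes that relay the interferon signal followed with smaller differences. Of 12 sensors tested, 3 were called above 0, where 0.648% of all probes were, with a list median of 0.29. RIGI, the cytoplasmic RNA helicase named DDX58 on the array, had differences of -1.08 to 0.03 (median -0.55) in cyclic and -0.16 to 0.89 (median 0.55) in pregnant cows. The groups overlapped in 4 pregnant cows, and the response difference was 0.95 ± 0.14 (SE, limma adjusted p = 0.00345). TLR7, the endosomal receptor for single-stranded RNA, gave 0.62 ± 0.11 (SE, limma adjusted p = 0.00512), and the RNA-editing enzyme ADAR gave 0.48 ± 0.10 (SE, limma adjusted p = 0.0228).

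Of 20 interferon receptors, JAK-STAT members and interferon regulatory factors, 2 were called above 0, where 0.648% of all probes were. These were IRF9, the DNA-binding subunit of the ISGF3 complex, at 0.49 ± 0.11 (SE, limma adjusted p = 0.0377), and NMI, a partner of STAT proteins, at 0.43 ± 0.11 (SE, limma adjusted p = 0.046). With the slide pair as a fixed term IRF9 was 0.08. The receptor chain IFNAR1 had a response difference of -0.01 and IFNAR2 of 0.31, and neither passed. Of 6 genes of ISG15 conjugation, 2 were called, both above 0, against 0.648% of all probes. USP18, the protease that removes ISG15, was at 0.78 ± 0.17 (SE, limma adjusted p = 0.0367), and HERC5, an ISG15 ligase, at 0.74 ± 0.15 (SE, limma adjusted p = 0.0249). HERC6, the related ligase, was measured by a pair of probes that disagreed. The dimmer one had a response difference of 1.33 (limma adjusted p = 0.00512), and the brighter one, which the array itself names HERC5, had 0.59 (limma adjusted p = 0.0588). When a probe was allowed to count for either of its names, the number called in this list was 1 in place of 2.

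Complement and myeloid genes were a further group. Of 23 complement genes tested, 3 were called above 0, where 0.648% of all probes were, and 0 below. In all 15 of the 23 were above 0, and at an unadjusted p under 0.05 there were 7 above 0 and 3 below. The probe A_73_109984, without a symbol and named C4B by the study's annotation, is not in these counts. It was called at 0.73 (limma adjusted p = 0.0446), with responses of 0.53 in caruncular and -0.20 in intercaruncular tissue. C2, which supplies the protease of the classical C3 convertase, had differences of -1.81 to 0.43 (median -1.09) in cyclic and -0.24 to 1.41 (median 0.44) in pregnant cows. Here 6 of 12 pregnant cows exceeded every cyclic cow. The caruncular response was 3.47-fold and the intercaruncular response 1.39-fold, and the response difference was 1.32 ± 0.24 (SE, limma adjusted p = 0.0077), or 0.52 with the slide pair as a fixed term. In cyclic cows C2 was lower in the caruncles than between them in 9 of 10 animals, cow Non-Pregnant_9786 being the exception.

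C3AR1, the receptor for the C3a fragment, had differences of -0.33 to 0.40 (median 0.17) in cyclic and 0.45 to 1.10 (median 0.73) in pregnant cows. All 12 pregnant cows lay above all 10 cyclic cows, and the response difference was 0.64 ± 0.09 (SE, limma adjusted p = 0.00179). Such separation was found for 4 probes, 0.0273% of all tested, the others being ZC3HAV1, ACKR4 and the probe A_73_107780, which were named after their values were seen. SERPING1, the C1 inhibitor, gave 0.47 ± 0.08 (SE, limma adjusted p = 0.0077). SIGLEC1, a sialic acid receptor of macrophages, gave 0.90 ± 0.15 (SE, limma adjusted p = 0.00512) and was the only member called among 18 macrophage and granulocyte markers.

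The mean ratio of the macrophage and granulocyte markers was -0.41 to 0.75 in caruncular and -0.53 to 0.56 in intercaruncular tissue of pregnant cows. In cyclic cows it was -1.05 to -0.29 and -0.96 to -0.19. The list's median response difference was 0.22 and 15 of its 18 members were above 0, with CD14 at -0.01 and CD163, both general macrophage markers, at -0.21. The part of cell composition in the complement and SIGLEC1 values was not tested.

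**Figure D3:**
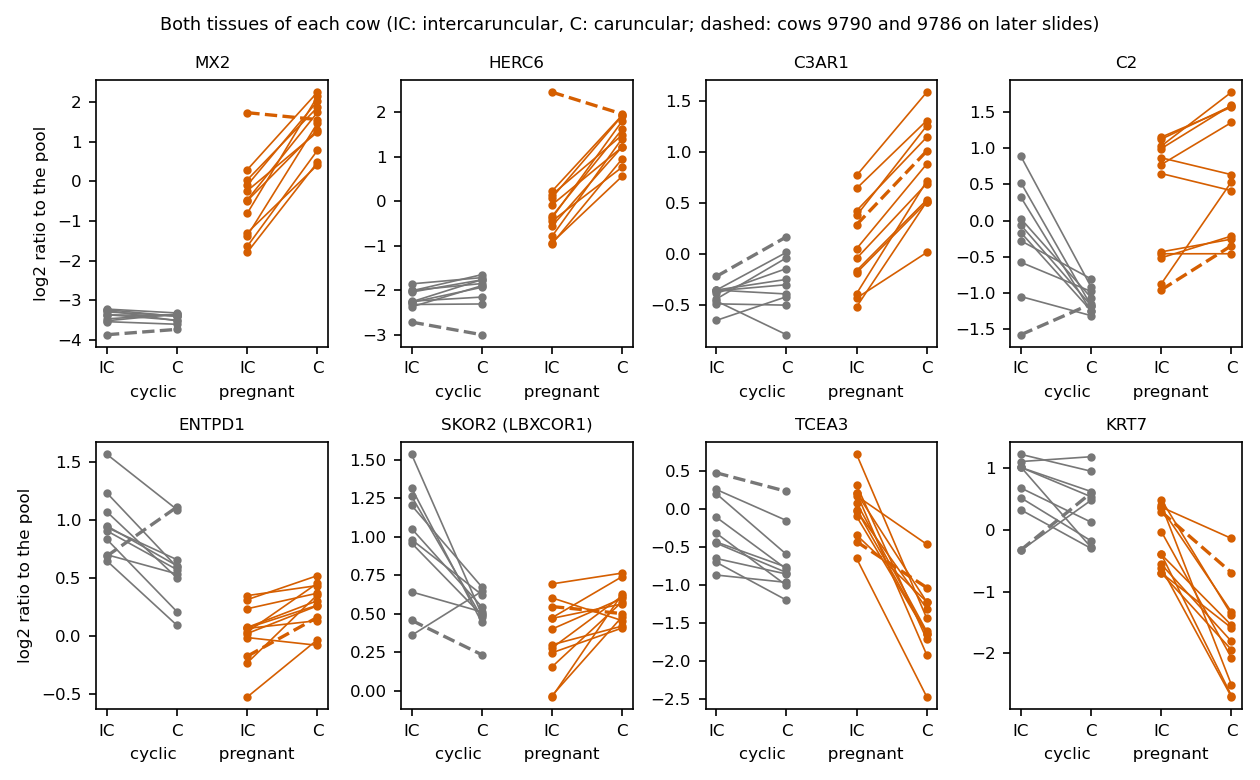
Log2 ratio to the pool in both tissues of each cow for selected called genes, with lines joining the tissues of 1 cow. The MX2 lines of cyclic cows are nearly flat, with differences of -0.26 to 0.17, whereas those of 11 pregnant cows rise from the intercaruncular to the caruncular side. Dashed lines mark cows Pregnant_9790 and Non-Pregnant_9786.

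Epithelial markers lay mostly below 0. Of the 22 tested, 2 were called below 0, where 0.368% of all probes were, and 0 above. The response difference was above 0 for 3 of the 22, against 45.9% of all probes, and the list median was -0.29. The list's median response was -0.37 in caruncular tissue, where 5 members fell and 2 rose, and 0.02 in intercaruncular tissue, where 2 fell and 3 rose. KRT7, a keratin of simple epithelia, had differences of -1.30 to 0.92 (median -0.43) in cyclic and -2.91 to -0.51 (median -1.46) in pregnant cows. The groups overlapped, and 6 of 12 pregnant cows lay below every cyclic cow. The ratio fell 4.20-fold in caruncular and 1.68-fold in intercaruncular tissue, a response difference of -1.32 ± 0.28 (SE, limma adjusted p = 0.0249). CLDN10, a tight-junction claudin, gave -1.22 ± 0.28 (SE, limma adjusted p = 0.0393), but 0.15 with the slide pair as a fixed term. MSX1, a homeobox factor of the uterine epithelium, gave -0.84 ± 0.20 (SE, limma adjusted p = 0.0451) and was the only gene called among 37 of the WNT and patterning list, but it was -0.19 with that term.

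Ciliated-cell markers did not pass. All 10 tested were below 0 with a median of -0.71, which turned to 0.90 with the slide pair as a fixed term, 0 were called by limma, and 4 had an unadjusted p under 0.05, the smallest adjusted p being that of CAPSL at 0.0896. The mean ratio of the epithelial markers was -1.36 to 0.12 in caruncular tissue of pregnant cows and -0.89 to 0.21 in that of cyclic cows, against -0.16 to 0.48 and -0.39 to 0.27 between the caruncles. With a cow's mean difference over 44 epithelial, glandular and ciliated markers as a covariate, which was chosen after seeing the data, 30 probes were called, of which 23 were among the 149. The part of epithelial content in the response differences was not tested beyond that.

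**Figure D4:**
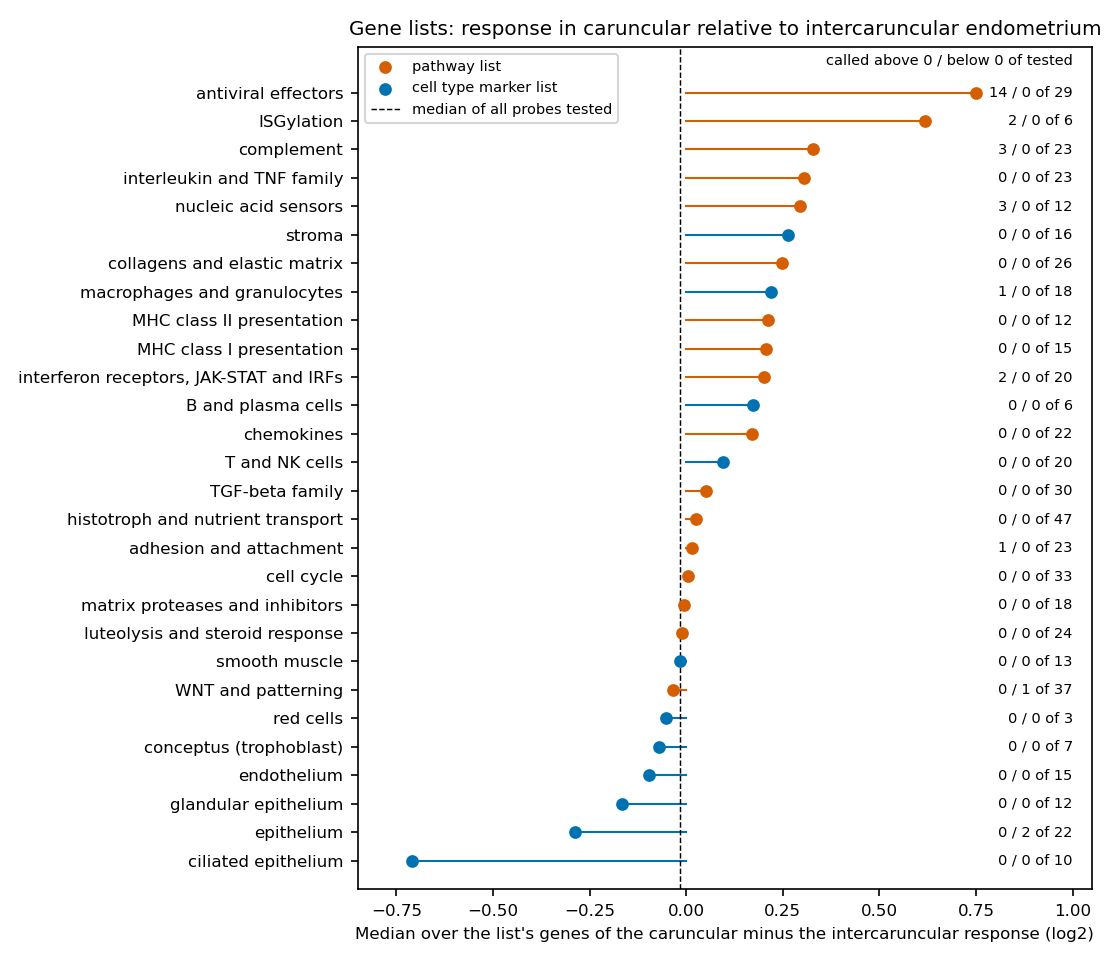
Median response difference of each gene list (log2), with the number of members called above and below 0 of those tested at the right and the median of all probes as a dashed line. Antiviral effectors lie highest at 0.75 and ciliated epithelium lowest at -0.71.

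Genes whose fitted responses ran in opposite directions formed the second class. TCEA3, a transcription elongation factor, had differences of -0.80 to -0.10 (median -0.40) in cyclic and -2.15 to -0.60 (median -1.59) in pregnant cows. Its ratio changed by -0.78 in caruncular and 0.27 in intercaruncular tissue, a response difference of -1.05 ± 0.18 (SE, limma adjusted p = 0.00512). The intercaruncular change did not pass its own test. PHACTR1, a regulator of protein phosphatase and actin, gave 1.17 ± 0.20 (SE, limma adjusted p = 0.00512), with 11 of 12 pregnant cows above every cyclic cow.

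NME7, a nucleoside diphosphate kinase family member, had differences of -0.80 to 1.30 (median 0.54) in cyclic and -1.53 to 0.04 (median -0.66) in pregnant cows. The lowest cyclic value was that of cow Non-Pregnant_9786. The ratio changed by -0.72 in caruncular and 0.45 in intercaruncular tissue, a response difference of -1.17 ± 0.22 (SE, limma adjusted p = 0.01). In limma the 2 changes had an adjusted p of 0.0144 and 0.00814, but the intercaruncular one was 1.37-fold, under the 1.5-fold threshold. The mean signal of NME7 was 83.9 units, close to the signal minimum of the filter. It was above background in 10 of 12 pregnant and 9 of 10 cyclic caruncular samples. Between the caruncles it was so in 12 of 12 and 9 of 10. The part of low signal in the NME7 values was not tested. Other named genes of this class were LBXCOR1, which RefSeq names SKOR2 by its gene number, LRP10, TMPRSS3, OR51G2, MKNK2 and ANXA4, with response differences of -0.52 to 0.69. With the slide pair as a fixed term SKOR2 was 0.14, and the sign for ANXA4 turned from -0.35 to 0.02. Of 36 named called probes, 15 had a value over 1.5 times smaller under that term, 2 a value over 1.5 times larger and 3 the other sign.

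The weaker class held 4 probes, and in all of them both fitted responses were below 0 and the caruncular one was the smaller. The intercaruncular fall passed both criteria, adjusted p and 1.5-fold, for 3 of the 4 and the caruncular one for 0. ENTPD1, an ectoenzyme that degrades extracellular ATP, had fitted responses of -0.33 in caruncular and -0.94 in intercaruncular tissue, a response difference of 0.60 ± 0.11 (SE, limma adjusted p = 0.00791). The groups overlapped, with 2 of 12 pregnant cows above every cyclic cow. The caruncular fall of ENTPD1 had a limma adjusted p of 0.0264 and was 1.26-fold, so it missed only the 1.5-fold threshold. PLCL2, a phospholipase C-like protein, gave 0.59 ± 0.14 (SE, limma adjusted p = 0.0393), and -0.04 with the slide pair as a fixed term. The other 2, A_73_115221 and A_73_109160, had no symbol.

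Among called probes without a symbol, the first 4 by p are shown by their 60-base sequences as the study lists them, since neither the array's annotation nor the RefSeq match gave them a symbol.
A_73_105109: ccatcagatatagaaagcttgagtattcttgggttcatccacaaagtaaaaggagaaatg
A_73_106620: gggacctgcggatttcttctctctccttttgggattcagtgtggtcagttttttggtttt
A_73_105675: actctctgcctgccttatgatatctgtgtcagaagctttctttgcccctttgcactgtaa
A_73_121038: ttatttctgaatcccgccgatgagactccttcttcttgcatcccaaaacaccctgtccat
A_73_105109, which the study's annotation names IFIT1, had differences of -0.30 to 0.06 (median -0.04) in cyclic and -0.52 to 3.20 (median 1.70) in pregnant cows, and its response difference was 1.75 ± 0.27 (SE, limma adjusted p = 0.00345). A_73_106620 was placed by the array's own annotation at chr24:28523293-28524207, in a build not given in the sources used here. Its ratio changed by 0.61 in caruncular and -0.39 in intercaruncular tissue, a response difference of 1.00 ± 0.16 (SE, limma adjusted p = 0.00482), which was 0.02 with the slide pair as a fixed term. A_73_121038 gave 1.17 ± 0.21 and A_73_105675 gave 0.50 ± 0.09 (SE, limma adjusted p = 0.00854 for both).

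Set against the tissues themselves, the response differences changed which tissue had the higher ratio for some probes. The tissues differed in cyclic cows for 8117 probes (55.4%) and in pregnant cows for 9200 (62.8%). Of the 149 probes, 42 did not differ between the tissues in cyclic cows and were higher in the caruncles of pregnant cows, and 24 went from not differing to lower. For 33 the order turned from lower to higher in the caruncles, and for 7 from higher to lower. The others were 18 that were lower in both states, 2 that were higher in both, 17 that went from lower to not differing and 6 from higher to not differing.

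**Figure D5:**
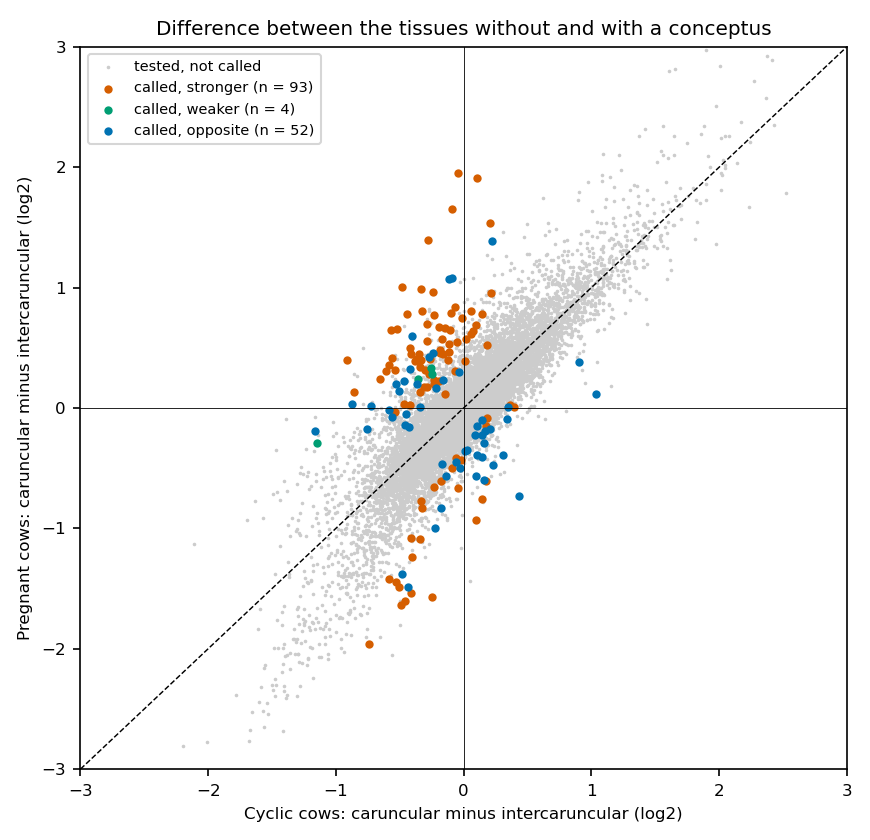
Caruncular minus intercaruncular log2 ratio in pregnant cows against that in cyclic cows for all probes tested, with the 149 called probes coloured by class. Most probes lie near the line of equality, and called probes lie off it.

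Several groups of genes of early pregnancy held 0 called members. None of 15 genes of MHC class I presentation passed, although 14 were above 0 (median 0.21), and B2M, the light chain of class I molecules, had 0.49 ± 0.14 (SE, limma adjusted p = 0.0805). None of 12 MHC class II genes, 22 chemokines or 23 interleukin and TNF family genes passed in limma. At an unadjusted limma p under 0.05 these 4 lists, with class I first, held 6, 5, 4 and 11 genes, against 17.2% of all probes. All of these genes were above 0 except 1 chemokine, and 7.39% of all probes were above 0 at that p. Of the interleukin and TNF family, 20 of 23 were above 0, with a median of 0.30. The chemokine CXCL10 had 1.16 ± 0.42 (SE, limma adjusted p = 0.147), a large but variable difference. Of the 22 chemokines 16 were above 0, whereas CCL28 lay below 0, at -1.11 to -0.78 without each cow in turn. None of 24 genes of luteolysis and steroid response, 47 of histotroph and nutrient transport, 26 collagens and elastic matrix genes or 33 cell cycle genes passed, with list medians of -0.01, 0.02, 0.25 and 0.01. At an unadjusted p under 0.05 these 4 lists held 3, 16, 7 and 7 genes. The lists hold probes matched by symbol, so A_73_119843, which has none and which the study's annotation names AKR1B1, was not counted. It was called below 0, at -0.70 (limma adjusted p = 0.0393). Of 7 conceptus markers tested limma called 0, and 1 had an unadjusted p under 0.05.

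Embryo size did not separate the within-cow differences at this number of animals. Between 7 cows with a large and 5 with a small conceptus, 0 of 14661 probes (0%) passed (limma, Benjamini-Hochberg), and the methods' t-test gave 0 as well. Without adjustment 1269 (8.66%) had a p under 0.05, and of the 149 probes 5 (3.36%) did.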

How the data were processed

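Day-17 endometrium of 22 cows, 44 samples on 48 arrays, was analysed from the deposited scanner output. Per the file headers, the authors used Agilent Feature Extraction 9.5.3.1, which subtracted background, normalized the dyes and wrote a log10 ratio of Cy5 over Cy3 for each spot. Spot intensity columns and flags, also deposited, gave the filter, and the deposited matrix of log2 values served as an alternative. Ratios were taken to log2, spots of a probe averaged, and each array's median subtracted. Probes were tested where 22 of the 44 samples or more were above background and at 80 units or more, and where each state had 6 differences or more. Repeated arrays were averaged first.

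limma 3.58.1 in R 4.3.3 compared the caruncular minus intercaruncular difference of a cow between 12 pregnant and 10 cyclic cows, with Benjamini-Hochberg adjustment over 14661 probes (adjusted p under 0.05, and 1.5-fold within a tissue). Cow numbers in the sample titles pair the tissues. The deviations of a cow's tissues from their group means correlated at 0.11 to 0.87 (median 0.614), and in 21 of 22 cows the animal's own other tissue correlated best. The number of arrays limits the precision. On simulated data 56%, 88%, 96% and 100% of 50 probes changed by 0.5, 1, 1.5 and 2 on the log2 scale were recovered, and 6 of 176 calls were unchanged probes. The simulated noise was normal and independent between probes, with a probe's SD shared by both states and no slide effect. These counts therefore give no error rate for the calls in the real data.

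Members and gene lists were chosen with earlier results of these data known. Named genes were up to 10 called genes per class by p, up to 4 called probes without a symbol, up to 6 called members per list or otherwise the 2 of smallest p, and genes that earlier results had named. MAPK8IP1, one of these, did not enter the test, and 1 named gene is not reported here. Gene symbols came from RefSeq by accession (3524 probes) or gene number (9987 probes) and otherwise from the array's description, and both names existed and differed for 2814 probes. Lists were first matched by either name. After those counts had been seen, matching was changed to the symbol alone, because probes with 2 names counted for 2 genes. The change altered the members or median of 9 of 28 lists and the number of calls in 1, ISG15 conjugation, from 1 to 2.

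Alternatives covered pairing, slide, scan batch, repeated arrays, background, centring, scale, filter, test and each cow left out. A pair of covariates, signal over background and epithelial markers, was added after seeing the data. Every p-value here was computed from the deposited ratios, not taken from the authors.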

Additional observations from a re-analysis of the deposited data

Results flagged for a closer look

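For 36 named probes the pregnancy effect differed between the tissues by the limma test of the difference itself, and these values are caruncular minus intercaruncular responses on the log2 scale. Among interferon-stimulated genes and their regulators they were 1.994 for MX2, 1.806 for RSAD2, 1.753 for A_73_105109, 1.328 for HERC6, 1.228 for ZBP1, 0.9469 for RIGI, 0.9159 for OAS2, 0.7772 for MX1, 0.7766 for USP18, 0.7434 for HERC5, 0.672 for PARP12, 0.6188 for TLR7, 0.4887 for IRF9, 0.4801 for ADAR and 0.433 for NMI. Complement and macrophage genes gave 1.317 for C2, 0.8961 for SIGLEC1, 0.637 for C3AR1 and 0.465 for SERPING1. Response differences below 0 were -1.325 for KRT7, -1.22 for CLDN10, -1.165 for NME7, -1.052 for TCEA3, -0.8387 for MSX1, -0.5241 for TMPRSS3, -0.4532 for MKNK2 and -0.3534 for ANXA4. The rest were 1.174 for PHACTR1, 1.17 for A_73_121038, 0.9969 for A_73_106620, 0.6856 for SKOR2, 0.6023 for ENTPD1, 0.5852 for PLCL2, 0.5738 for OR51G2, 0.5027 for A_73_105675 and 0.3535 for LRP10.

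A single cyclic cow lay far from the other 9 in 8 of 74 groups examined (10.8%), where chance gives about 1 in 20 independent groups, and these groups share the same cows. Cow Non-Pregnant_9786, the cyclic cow with both tissues on 1 later slide, did so 4 times, with caruncular minus intercaruncular differences of 0.05462 for OAS2, 0.4239 for ENTPD1, 0.3146 for TMPRSS3 and 0.7697 for CCNB2. The others were cow Non-Pregnant_3811 at 1.033 for LTF, cow Non-Pregnant_3972 at 2.78 for COL4A4, and cow Non-Pregnant_9960 at -2.22 for PAG1 and 2.187 for DES.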

How the results depend on the processing

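The sign of the response difference was the same for all 149 probes without each of the 22 cows in turn. So it was under every other alternative in which they could be tested. The exception was the slide pair as a fixed block, where 127 kept it. Settings that changed only the pairing by cow, the test or the probe filter estimate the same contrast of group means. For the 145 of the 149 with all differences measured, the sign under these settings was thus fixed in advance. The 149 had also been chosen on these same data. The number called varied with the setting. Without pairing by cow (no replicate block) it was 2, with 1070 at an unadjusted p under 0.05, and with cow as a random replicate block it was 427, of which 117 were among the 149. With the slide pair as a random block it was 14, all among the 149 and 92.9% above 0, and as a fixed block it was 0, with 796 at an unadjusted p under 0.05. Cyclic cows gave 5270 tissue differences without the block, and intercaruncular tissue gave 653 pregnancy effects with the random slide block. Under the fixed slide block the caruncular, intercaruncular and mean effects fell to 58, 127 and 103 and embryo size called 2, while tissue differences within a state could not be fitted.

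Of other settings, the first 2 scan batches gave 468 (59.4% above 0), the first array alone 71, quantile normalization 44 and the methods' t-test 74. With signal over background as a covariate 268 were called and with epithelial markers 30, of which 80% were above 0 against 63.8%. The cow as a random block gave 50.4%.

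Leaving out 1 cow gave 45 (without Non-Pregnant_1950) to 567 (without Non-Pregnant_9786). Counts under 149 by over 1.5 times came without Non-Pregnant_2952 (46), Non-Pregnant_1940 (47), Pregnant_1943 (47), Non-Pregnant_2970 (50), Pregnant_3957 (52), Non-Pregnant_9813 (57), Non-Pregnant_3811 (64), Pregnant_3805 (69), Pregnant_9246 (69), Non-Pregnant_9778 (76), Pregnant_926 (82) and Pregnant_977 (95), and counts above it by over 1.5 times without Pregnant_3803 (239), Non-Pregnant_3972 (274), Pregnant_9790 (303), Non-Pregnant_9960 (350) and Pregnant_3807 (496). In the fixed slide block, smaller by over 1.5 times were also ZBP1 (0.77), RIGI (0.61), PARP12 (0.37), PHACTR1 (0.63), SIGLEC1 (0.50), ENTPD1 (0.38), A_73_121038 (0.68), NME7 (-0.37), ADAR (0.20) and OR51G2 (0.28), and larger were TLR7 (1.10) and KRT7 (-2.02). Of 37 named called probes, 26 stayed called without each cow in turn.

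With the slide pair as a fixed block the sign turned for ANXA4 (0.01966), PLCL2 (-0.04445), CLDN10 (0.1481), CAPSL (0.4056), TGFB1 (-0.2347), COL4A3 (-1.003), PLA2G2A (0.08714), CCL28 (0.7527), COL4A4 (-1.835), RSPH1 (0.6994), FOXA2 (1.386), CD27 (-0.633), PAG1 (-0.7076), HBG (0.1225), DES (-0.03213) and HBA2 (0.3079). That fit rests on 1 slide pair with both states, which held 3 pregnant cows and 1 cyclic cow. Each of its values therefore depends on 1 cyclic animal. The fertility label of the pregnant cows was not a term in that fit, so its values do not separate slide from fertility. The cause of these changes was not tested.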
